A study of Drosophila melanogaster with 9 samples.

Results

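S2R+ is an embryo-derived Drosophila cell line that resembles plasmatocytes, the macrophage-like blood cells of the fly. The comparison described here is of S2R+ cells kept in M3 + 2.5% FEx, a serum-free medium with a low dose of fly extract, against S2R+ cells kept in MB10, the usual serum medium. It takes the 3 libraries of each medium by their labels, 6 of the 9 libraries in the study, and all genes in the count table. The other 3 libraries, from M3 + 10% FEx, are set beside the result at the end. They also entered the fit, where they bore on which genes had enough counts to be tested, on the scaling and on the estimate of the spread. The study asked how replacing serum by fly extract alters the cells. MB10 is Shields and Sang M3 medium with bactopeptone, yeast extract and 10% fetal serum, and M3 + 2.5% FEx is M3 medium with 2.5% fly extract and none of those 3 additions. FEx is the heat-treated and filtered soluble extract of homogenized adult Oregon-R flies of both sexes. The cells in FEx came from 1 line adapted stepwise, first to 10% FEx and then to 2.5%, so that the loss of serum, the loss of bactopeptone and yeast extract, the extract itself and any change fixed in the line during adaptation cannot be told apart. The labels describe cells collected in triplicate without saying whether these were separate cultures, and p-values measure the spread between those samples, which may be technical.

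Insect cells in culture take sugar, amino acids, lipid and metals from their medium, and serum and yeast products supply many of them along with growth factors and steroid. Plasmatocytes phagocytose microbes and dead cells, secrete basement membrane, and release serine proteases, serpins and clotting proteins into the hemolymph. Fly extract supplies soluble proteins, metabolites and hormones of adult flies in place of mammalian ones.

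Each library held 20868239 to 23775867 counts, so that 3 counts stand for 0.123 to 0.151 CPM (a gene's count scaled to the normalized size of its library). Of 17562 genes, 8705 had enough counts to be tested. A gene is called here when its adjusted p was under 0.05 and its log2 fold change was beyond 1 or -1, and is said to have risen or fallen when the adjusted p alone was under 0.05. By these rules 487 genes (5.59%) were called higher in M3 + 2.5% FEx and 255 (2.93%) were called lower. Without the limit on size, 1912 genes (22%) rose and 1932 (22.2%) fell, and the median over all tested genes was -0.04. The 22% and 22.2% are the shares to set beside the counts of list members below. With the 6 libraries of these media alone, 8505 genes were tested, of which 438 were called higher and 238 lower. Groups said not to overlap have every library of 1 medium above every library of the other. This held for 4484 of the 8705 tested genes, among them 484 of the 487 called higher and 252 of the 255 called lower. It is therefore common and not particular to the genes named below. Of 13 blood cell identity genes tested, 1 rose, 2 fell and 10 did not pass the test, and in a fit adjusted for exon length, described below, 1 rose and 5 fell. Among the 10, srp, the GATA factor of the blood lineage, had 270.2, 259.6 and 265 CPM in M3 + 2.5% FEx, against 286, 295 and 289 CPM in MB10 (log2 fold change -0.13 ± 0.06, adjusted p = 0.097), and it fell in the length-adjusted fit. The scavenger receptor crq had 396, 409.7 and 439 CPM in M3 + 2.5% FEx, against 419.9, 493 and 366 CPM in MB10, and the groups overlapped. The identity gene that rose was ush, with a mean of 473.3 CPM in M3 + 2.5% FEx against 335.8 CPM in MB10. Those that fell were Pxn, with means of 161.8 and 376.8 CPM in the same order, and eater, with 2.121 and 3.374 CPM. NimC1, another gene of this list, was not tested and had at most 3 counts in each of the 6 libraries. Of the 49 marker genes of adult fly tissues, 45 had at most 10 counts in every one of the 6 libraries and 28 had none. Of the yolk protein genes Yp1 and Yp3 were among the 45, and Yp2 had at most 5 counts in M3 + 2.5% FEx and 13 in MB10.

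**Figure D1:**
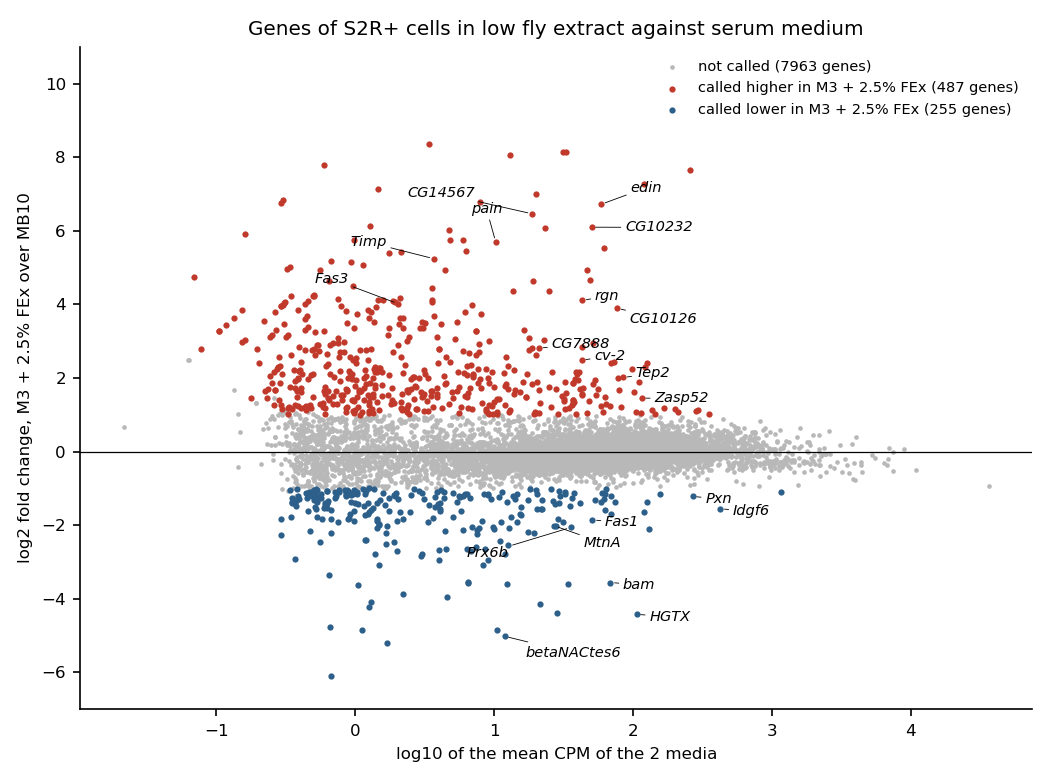
Log2 fold change of M3 + 2.5% FEx over MB10 (vertical axis) against the log10 of the mean CPM of both media (horizontal axis) for the 8705 genes tested, each point 1 gene. The 487 genes called higher reach further from 0 than the 255 called lower, and the labelled genes are described in the text.

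Exon length moved with the difference between the media and is given first because it touches many groups. Genes were split into quintiles by the summed length of their exons in the annotation. The median log2 fold change was -0.23 in the quintile with the shortest genes (30 to 1072 bases), -0.18, -0.08 and 0.06 in the next 3, and 0.25 in the quintile with the longest genes (3997 to 71820 bases). In the shortest quintile 9.23% of genes rose and 35.1% fell, while in the longest 52.9% rose and 6.52% fell. All 3 M3 + 2.5% FEx libraries had the trend, with medians of -0.224, -0.166 and -0.205 in the shortest quintile and 0.241, 0.232 and 0.263 in the longest, relative to the mean of MB10. The MB10 libraries differed among themselves in the same way, with 0.032, -0.106 and 0.054 in the shortest quintile and -0.014, 0.109 and -0.101 in the longest. The part of length in each small change was not tested gene by gene. A fit with offsets that take out the trend of each library gave nearly the same number of called genes, 485 higher and 230 lower, but 1574 in place of 1912 genes rose and 1406 in place of 1932 fell. Counts of list members from that fit are given as length-adjusted. That fit covered 8663 genes, so its shares of all genes that rose or fell were below the 22% and 22.2% without offsets. A lower length-adjusted count in a list is to be read beside these lower counts over all genes.

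**Figure D2:**
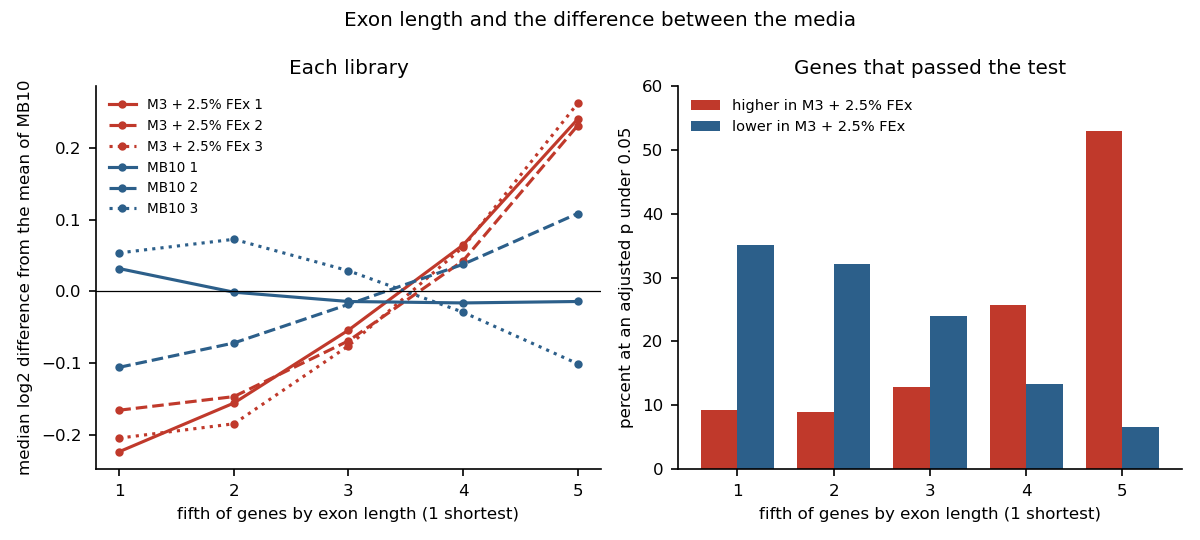
Left, the median log2 difference from the mean of MB10 in each library (vertical axis) over quintiles of genes by exon length (horizontal axis, 1 holding the shortest genes); right, the percent of genes in each quintile that rose or fell at an adjusted p under 0.05. The 3 M3 + 2.5% FEx libraries run from about -0.2 in the shortest quintile to 0.232 to 0.263 in the longest, and MB10 replicates 2 and 3 lean in opposite directions.

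Some of the carriers for amino acids and sugars rose in the serum-free cells. Of 15 amino acid transporter genes tested, 8 rose and 2 fell, with the same counts length-adjusted, and 4 were called higher and none lower (2 higher without MB10 replicate 3). CG7888, of the proton-coupled SLC36 family, had 37.4, 35 and 38.3 CPM in M3 + 2.5% FEx, against 5.98, 6 and 3.79 CPM in MB10. Its log2 fold change was 2.81 ± 0.13 (SE; adjusted p = 8.7e-09), and every serum-free library stood far above every MB10 one. CG1607, of the light-chain family of heteromeric amino acid carriers, had 3.84, 3.45 and 3.65 CPM in M3 + 2.5% FEx, against 0.754, 0.475 and 0.631 CPM in MB10 (log2 fold change 2.56 ± 0.17, adjusted p = 2.2e-07). The SLC36-type carrier path had 58.6, 62.6 and 66.4 CPM in M3 + 2.5% FEx, against 31.3, 33.4 and 26.4 CPM in MB10, and its groups did not overlap. Its log2 fold change was 0.95 without MB10 replicate 3 and 0.98 in the length-adjusted fit, where it was not called. Eaat1, a glutamate transporter at a much lower level, had 0.507, 0.658 and 0.705 CPM in M3 + 2.5% FEx, against 0.402, 0.216 and 0.18 CPM in MB10, and its call was lost when M3 + 2.5% FEx replicate 3 or MB10 replicate 3 was left out. Of 8 genes for trehalose and sugar transport, 4 rose, all of them called; length-adjusted, 4 rose, 3 of them called, and 1 fell. Tret1-1, the trehalose transporter (trehalose being the main sugar of insect hemolymph), had 26.7, 25.7 and 22.4 CPM in M3 + 2.5% FEx, against 9.35, 8.9 and 8.52 CPM in MB10 (log2 fold change 1.48 ± 0.11, adjusted p = 4.4e-07). Its neighbour Tret1-2 had 19.3, 19.1 and 19.5 CPM in M3 + 2.5% FEx, against 6.99, 5.83 and 5.1 CPM in MB10, and the groups did not overlap for either gene. Glut1, a glucose transporter, had 0.676, 1.19 and 0.871 CPM in M3 + 2.5% FEx, against 0.151, 0.302 and 0.406 CPM in MB10 (log2 fold change 1.63 ± 0.34, adjusted p = 0.0026). Glycolysis itself moved little: of 13 genes tested 1 rose, 1 fell and none was called (length-adjusted, 3 rose and 1 fell), and 5 rose without MB10 replicate 3. The aldolase Ald1 rose by 0.55 ± 0.08 while Pgk had a log2 fold change of -0.42 ± 0.12, which did not pass without M3 + 2.5% FEx replicate 3.

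Of 15 genes of the ATF4 pathway, which responds to amino acid shortage, 6 rose, 9 did not pass the test and 2 were called higher. Length-adjusted, 7 rose and 1 was called. Thor, the translation inhibitor 4E-BP, had 26.9, 26.6 and 23.9 CPM in M3 + 2.5% FEx, against 13.6, 12.1 and 12.4 CPM in MB10, and chrb, an inhibitor of the TOR kinase, had 25.3, 25 and 30.5 CPM in M3 + 2.5% FEx, against 14.5, 13.9 and 10 CPM in MB10. For both, every M3 + 2.5% FEx library was above every MB10 library. Both lie near the limit of a call: the log2 fold change of Thor was 1.00, and not called, without M3 + 2.5% FEx replicate 1, and that of chrb was 0.99 without M3 + 2.5% FEx replicate 3, 0.93 without MB10 replicate 3 and 0.84 in the length-adjusted fit. The transcription factor crc, which is fly ATF4, rose by 0.41, and the kinases Gcn2 and PEK that act ahead of it rose by 0.44 and 0.48.

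Lipid genes moved in both directions. Of 20 genes for lipid storage, lipoprotein uptake and sterol transport 8 rose and 8 fell, with 3 called higher and 4 called lower. Length-adjusted, 8 rose and 5 fell, and 5 fell without M3 + 2.5% FEx replicate 1. Among those called higher were 2 lipoprotein receptor genes. LpR1 had 1.31, 1.4 and 1.54 CPM in M3 + 2.5% FEx, against 0.402, 0.432 and 0.226 CPM in MB10, and LpR2 had 17.4, 16.9 and 17.8 CPM in M3 + 2.5% FEx, against 6.64, 10.2 and 7.53 CPM in MB10. The lipase Lip4 had 2.41, 2.43 and 2.61 CPM in M3 + 2.5% FEx, against 0.905, 0.302 and 0.361 CPM in MB10 (log2 fold change 2.28 ± 0.28, adjusted p = 5.3e-05). The lipophorin gene apolpp had 3.97, 2.8 and 3.61 CPM in M3 + 2.5% FEx, against 13.9, 14.6 and 9.97 CPM in MB10 (log2 fold change -1.89 ± 0.18, adjusted p = 6.7e-06). Apoltp, which encodes the lipid transfer particle, had 22.2, 23.9 and 22.5 CPM in M3 + 2.5% FEx, against 56.2, 73.7 and 49.1 CPM in MB10 (log2 fold change -1.38 ± 0.13, adjusted p = 7e-06). The groups overlapped for none of these 5 genes, and LpR2 was not called in the length-adjusted fit (0.88) or without MB10 replicate 1 (0.98). The sterol-binding proteins Npc2h and Npc2g were lower at under 1 CPM, with log2 fold changes of -1.27 ± 0.35 and -1.2 ± 0.41, and the groups overlapped for Npc2g. The fall of Npc2g did not pass in 4 of the 6 fits that left out 1 library or in the length-adjusted fit. Npc2h was not called without M3 + 2.5% FEx replicate 1 (-0.94). Among 13 genes of the SREBP pathway and fatty acid synthesis 4 rose and 1 fell (length-adjusted, 2 rose and 4 fell). The one called was Fatp3 of the fatty acid transport protein family, which had 5.45, 5.76 and 5.6 CPM in M3 + 2.5% FEx, against 0.553, 0.475 and 0.586 CPM in MB10 (log2 fold change 3.37 ± 0.16, adjusted p = 8.3e-09). SREBP and its escort SCAP rose by 0.25 and 0.25, and the desaturase Desat1 fell by 0.27. In the length-adjusted fit SREBP and SCAP did not pass, and Desat1 did not pass without MB10 replicate 1.

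Mitochondrial and ribosomal genes are short, and many of them fell by small amounts. Of 68 nuclear respiratory chain genes tested, 2 rose and 36 fell (52.9%, against 22.2% of all genes), with a median log2 fold change of -0.36 and none called. Their median exon length was 862 bases, 6 fell in the length-adjusted fit, and leaving out single libraries gave 15 (without M3 + 2.5% FEx replicate 3) to 55 (without MB10 replicate 2). The same 2 libraries gave the lowest and the highest counts for the other 3 nuclear lists of this paragraph. The complex I subunit gene ND-49 had the lowest log2 fold change of the list, with 176, 179 and 187 CPM in M3 + 2.5% FEx, against 344, 359 and 306 CPM in MB10 (log2 fold change -0.9 ± 0.07, adjusted p = 9e-07). It lies on chromosome 4, which is described below. Of 86 cytosolic ribosomal protein genes 26 fell and none rose, 6 fell in the length-adjusted fit, and 9 to 72 fell with single libraries left out. Relative to the mean of MB10 their median was -0.231, -0.205 and -0.447 in the M3 + 2.5% FEx libraries and -0.032, -0.322 and 0.375 in the MB10 libraries, so that the groups overlapped. The mitochondrial ribosomal proteins had 22 of 73 that fell, 7 in the length-adjusted fit and 16 to 52 with single libraries left out. The proteasome had 9 of 35 that fell (25.7%, near the 22.2% of all genes), 2 in the length-adjusted fit and 5 to 17 with single libraries left out. Of transcripts of the mitochondrial genome 16 of 27 fell, and 12 in the length-adjusted fit, with a median of -0.58. mt:ND1, a complex I subunit, had 849.7, 1130.0 and 1247 CPM in M3 + 2.5% FEx, against 2621, 1865 and 1563 CPM in MB10, and mt:CoI, a subunit of cytochrome oxidase, had 7679, 9324 and 9959 CPM in M3 + 2.5% FEx, against 15479, 11962 and 10563 CPM in MB10. MB10 replicate 1 had the highest level of both. With it left out 8 of the 27 fell, as also with M3 + 2.5% FEx replicate 1 left out, and mt:CoI did not pass in either fit or in the length-adjusted one. The kit selects polyadenylated RNA, so levels of mitochondrial tRNA and rRNA in these libraries depend on that step as well as on the RNA.

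Members of detoxification families were called higher, and 2 peroxiredoxins were called lower. Of 25 glutathione S-transferase genes tested 10 rose and 6 fell, with 4 called higher and 1 lower, and length-adjusted 13 rose and 4 fell. GstE2 had 46, 53 and 55.5 CPM in M3 + 2.5% FEx, against 13.6, 15.1 and 12.8 CPM in MB10 (log2 fold change 1.89 ± 0.11, adjusted p = 6.3e-08), and its neighbour GstE10 had 24.4, 26.5 and 25.4 CPM in M3 + 2.5% FEx, against 6.69, 6.87 and 7.08 CPM in MB10. GstD3 had 45.5, 47.5 and 51.2 CPM in M3 + 2.5% FEx, against 20.5, 22 and 20.3 CPM in MB10, and the groups did not overlap. GstE1 overlaps GstE10 on the other strand, had at most 3 counts in each MB10 library, and lost its call in 5 of the 6 fits that left out 1 library. GstT4 of the theta class had 15.6, 15.1 and 14.1 CPM in M3 + 2.5% FEx, against 38, 36.3 and 40.5 CPM in MB10 (log2 fold change -1.35 ± 0.10, adjusted p = 4.2e-07). Of 38 cytochrome P450 genes, which oxidize lipids, hormones and foreign compounds, 9 rose (23.7%, near the 22% of all genes). Another 6 fell (15.8%, against 22.2%), and the median log2 fold change of the list was 0.04. Length-adjusted, 12 rose and 6 fell. Without that adjustment 5 were called, all higher. The most abundant of these was Cyp6a20, with 76.1, 82.5 and 83.7 CPM in M3 + 2.5% FEx, against 29.4, 31.1 and 23.4 CPM in MB10, and Cyp6a9 had 3.72, 3.87 and 3.86 CPM in M3 + 2.5% FEx, against 1.21, 0.648 and 0.406 CPM in MB10. Of 9 UDP-glycosyltransferase genes, which conjugate sugar to foreign and endogenous compounds, 5 rose and 3 fell, also length-adjusted, and 3 rose without M3 + 2.5% FEx replicate 3, MB10 replicate 1 or MB10 replicate 3. One was called in each direction: Ugt36E1 had 0.422, 0.699 and 0.581 CPM in M3 + 2.5% FEx, against 0.151, 0.173 and 0.18 CPM in MB10 (log2 fold change 1.72 ± 0.37, adjusted p = 0.0028), and Ugt305A1 had 2.75, 2.3 and 2.82 CPM in M3 + 2.5% FEx, against 12.2, 13.2 and 12.1 CPM in MB10. Of 21 genes that remove reactive oxygen 3 rose and 9 fell (14.3% and 42.9%, against 22% and 22.2% of all genes). Length-adjusted, 1 rose and 7 fell, and 1 rose without M3 + 2.5% FEx replicate 1 or MB10 replicate 1. The peroxiredoxin Prx6b had 14.4, 13.6 and 13.3 CPM in M3 + 2.5% FEx, against 56.7, 52.9 and 63.2 CPM in MB10 (log2 fold change -2.06 ± 0.08, adjusted p = 2.3e-09), and Prx6c had 13.9, 13.4 and 11.7 CPM in M3 + 2.5% FEx, against 46.7, 42.3 and 59.2 CPM in MB10. Prx6b and Prx6c lie close together, with CG11825 and CG33474 between them, and are similar in sequence, so reads may be divided between them. Catalase, Cat, had 73.3, 68.3 and 68.7 CPM in M3 + 2.5% FEx, against 101, 108 and 115.5 CPM in MB10, a smaller difference in which the groups did not overlap.

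Metal and nucleotide genes held a few large changes. Of 16 metallothionein, zinc and copper genes tested 5 rose and 5 fell (31.25% each, against 22% and 22.2% of all genes). Of 11 iron genes 4 rose and 2 fell (36.4% and 18.2%). Of 26 purine, pyrimidine and urate genes 4 rose and 5 fell (15.4% and 19.2%). Length-adjusted, these lists had 4 and 4, 3 and 1, and 3 and 5. MtnA, a copper- and zinc-binding metallothionein, had 10.5, 10.8 and 11 CPM in M3 + 2.5% FEx, against 51.3, 37 and 42.7 CPM in MB10 (log2 fold change -2.02 ± 0.21, adjusted p = 1.3e-05). The MB10 libraries varied but all stood well above the serum-free ones. The zinc carrier Zip71B had 0.549, 0.617 and 0.498 CPM in M3 + 2.5% FEx, against 0.0503, 0.0432 and 0 CPM in MB10, where no library held more than 3 counts, and was at least 4-fold higher. Tsf1, the iron carrier transferrin, had 0.38, 0.452 and 0.373 CPM in M3 + 2.5% FEx, against 0.0503, 0.0864 and 0.18 CPM in MB10 and lost its call without MB10 replicate 1. NT5E-2, a 5′-nucleotidase that releases nucleosides outside the cell, had 3.97, 3.33 and 3.65 CPM in M3 + 2.5% FEx, against 0.151, 0.259 and 0.226 CPM in MB10 (log2 fold change 4.05 ± 0.25, adjusted p = 9.6e-08). The xanthine dehydrogenase gene ry had 0.169, 0.123 and 0.0830 CPM in M3 + 2.5% FEx, against 0.503, 0.432 and 0.451 CPM in MB10. Of 11 genes for NAD synthesis and use 5 rose and 1 fell, also length-adjusted. Sarm, which consumes NAD and has genes inside it on the other strand, had 675, 661 and 651 CPM in M3 + 2.5% FEx, against 413, 487 and 401 CPM in MB10, and the synthetase Nadsyn had 47.6, 47.6 and 48.3 CPM in M3 + 2.5% FEx, against 35.1, 34.3 and 30.7 CPM in MB10.

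Chaperones and the secretory pathway showed mixed, mostly small changes. Of 21 cytosolic heat shock genes 7 rose and 1 fell (8 and 1 length-adjusted), and 12 rose without MB10 replicate 3. Those called were l(2)efl, higher, and stv, lower. With single libraries left out their log2 fold changes were 0.9179 to 1.582 and -1.295 to -0.847. l(2)efl was not called without MB10 replicate 2, nor stv without M3 + 2.5% FEx replicate 2 or 3 or MB10 replicate 2. Hsc70-4, the constitutive HSP70, had 2695, 2599.9 and 2334 CPM in M3 + 2.5% FEx, against 1738, 1580.1 and 2210.0 CPM in MB10. The small heat shock genes Hsp23 and Hsp26 rose by 0.69 and 0.61 on the log2 scale. Of 24 endoplasmic reticulum genes 3 rose and 7 fell (12.5% and 29.2%, against 22% and 22.2% of all genes). Length-adjusted, 6 rose and 6 fell. Xbp1, a transcription factor of the unfolded protein response, had 598, 571 and 550.3 CPM in M3 + 2.5% FEx, against 379, 362 and 414 CPM in MB10, and Atf6, another one, had 17.2, 18.7 and 24.1 CPM in M3 + 2.5% FEx, against 45.4, 54.3 and 33.8 CPM in MB10. The groups did not overlap for either, in opposite directions, and the call of Atf6 was lost without MB10 replicate 2. Among lysosomal genes 6 of 13 fell and 1 rose (5 and 1 length-adjusted). Lerp, a receptor that sorts lysosomal enzymes, had 10.7, 11.1 and 11.4 CPM in M3 + 2.5% FEx, against 33, 36.5 and 28.8 CPM in MB10 (log2 fold change -1.56 ± 0.10, adjusted p = 1.1e-07), and the cathepsin CtsL1 fell by 0.77 on the log2 scale. Autophagy genes had 4 that rose and 5 that fell of 21 (2 and 5 length-adjusted). These were 19% and 23.8%, near the 22% and 22.2% of all genes, and 3 fell without M3 + 2.5% FEx replicate 1 or 2. The kinase Atg1 had 43.3, 42.5 and 44 CPM in M3 + 2.5% FEx, against 31.3, 32.5 and 28.2 CPM in MB10.

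**Figure D3:**
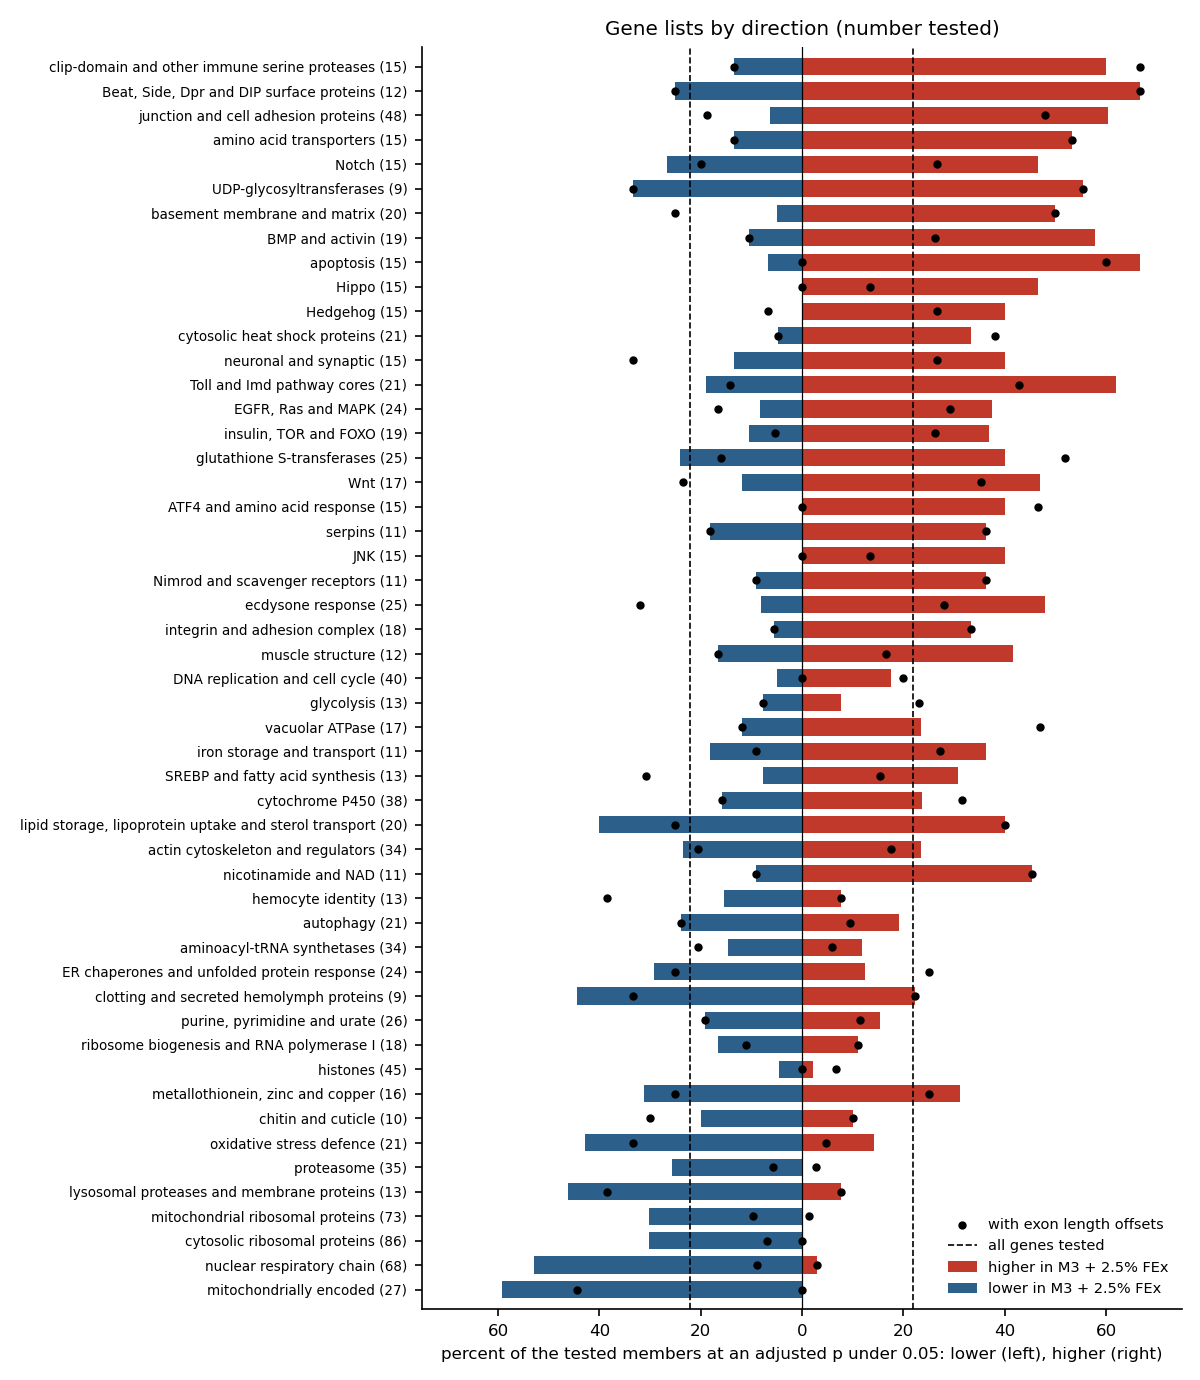
Percent of the tested members of each gene list that fell (left) or rose (right) in M3 + 2.5% FEx against MB10, for lists with at least 9 members tested (number in parentheses) ordered by median log2 fold change. Dashed lines mark 22.2% and 22% of all genes in the fit without offsets. Dots give the share of list members in the length-adjusted fit, and the lists differ widely in how far the dots sit from the bars.

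Growth and cell cycle genes changed little. Of 40 replication and cell cycle genes none was called. Among them 7 rose and 2 fell (17.5% and 5%, against 22% and 22.2% of all genes), and length-adjusted 8 rose and none fell. Those that rose numbered 3 without M3 + 2.5% FEx replicate 1 or MB10 replicate 1, and 12 without MB10 replicate 2. The mitotic phosphatase stg had 146, 149 and 161 CPM in M3 + 2.5% FEx, against 108, 111 and 110.3 CPM in MB10 (log2 fold change 0.46 ± 0.07, adjusted p = 0.00016). Of 19 insulin and TOR pathway genes 7 rose (36.8%) and 2 fell (10.5%). Length-adjusted 5 rose and 1 fell, and 12 rose without MB10 replicate 2. The insulin receptor gene InR had 165, 169 and 180.2 CPM in M3 + 2.5% FEx, against 115.3, 135 and 90.3 CPM in MB10. The apoptosis list had 10 of 15 genes that rose and 1 that fell, and 9 and 0 in the length-adjusted fit. Its largest change was in rpr, a trigger of cell death that frees caspases from their inhibitor, with 35.3, 37.7 and 42.4 CPM in M3 + 2.5% FEx, against 11.4, 11.6 and 11.1 CPM in MB10 (log2 fold change 1.76 ± 0.08, adjusted p = 8.7e-09). A related trigger, hid, had 5.83, 5.47 and 6.39 CPM in M3 + 2.5% FEx, against 4.12, 2.98 and 3.61 CPM in MB10. Every M3 + 2.5% FEx library was above every MB10 library for both.

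In the signalling lists the called genes were for the most part ligands, receptors and secreted modulators. The FGF ligand pyr had 3.68, 3.95 and 4.44 CPM in M3 + 2.5% FEx, against 0.352, 0.346 and 0.451 CPM in MB10 (log2 fold change 3.37 ± 0.20, adjusted p = 6.3e-08), and bnl, another FGF ligand, had 51.2, 53.7 and 52.9 CPM in M3 + 2.5% FEx, against 21.9, 22.4 and 18.6 CPM in MB10. In the Wnt list 8 of 17 rose and 2 fell, with 3 called, and length-adjusted 6 rose and 4 fell. The feedback inhibitor nkd had 6.13, 7.11 and 7.26 CPM in M3 + 2.5% FEx, against 0.503, 0.562 and 0.496 CPM in MB10 (log2 fold change 3.7 ± 0.20, adjusted p = 4e-08). The Wnt receptors fz2 and fz rose together, fz2 with 44.6, 46 and 47.4 CPM in M3 + 2.5% FEx, against 16, 16.9 and 15.2 CPM in MB10 and fz with 23.8, 23.8 and 27.7 CPM in M3 + 2.5% FEx, against 8.7, 9.81 and 8.57 CPM in MB10. None of these groups overlapped. In the Hedgehog list the secreted factor shf and the glypicans dally and dlp, which bind morphogens at the cell surface, were called higher; dally had 19.2, 16.9 and 20.8 CPM in M3 + 2.5% FEx, against 6.18, 5.66 and 4.06 CPM in MB10 and dlp had 14.6, 11.5 and 12.7 CPM in M3 + 2.5% FEx, against 4.88, 5.75 and 5.55 CPM in MB10. The gene cv-2, whose product binds BMP ligands outside the cell, had 73.1, 70.4 and 74.6 CPM in M3 + 2.5% FEx, against 12.3, 13.2 and 13.4 CPM in MB10 (log2 fold change 2.49 ± 0.08, adjusted p = 2.4e-10). The EGF receptor antagonist aos had 10.9, 11.4 and 13.6 CPM in M3 + 2.5% FEx, against 3.87, 3.28 and 2.75 CPM in MB10. Of 15 Hippo genes 7 rose, none by more than 0.37 on the log2 scale, and of 15 JNK genes 6 rose, of which Mmp1 alone was called. These are long genes, and in the length-adjusted fit 2 Hippo and 2 JNK genes rose. Without M3 + 2.5% FEx replicate 3 or MB10 replicate 1, 2 Hippo genes rose, and without M3 + 2.5% FEx replicate 2 or MB10 replicate 1, 3 JNK genes rose. Of 15 Notch genes none was called, 7 rose and 4 fell (4 and 3 length-adjusted).

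Ecdysone, the moulting steroid, acts through a nuclear receptor and a set of early response genes. Of 25 genes of this response 12 rose and 2 fell, but in the length-adjusted fit 7 rose and 8 fell. The receptor gene EcR had 64.4, 71.4 and 77.4 CPM in M3 + 2.5% FEx, against 81.2, 87.2 and 65.1 CPM in MB10, and the groups overlapped. It fell in the length-adjusted fit and without MB10 replicate 3. E23, an ecdysone-induced transporter, had 2.32, 2.22 and 2.82 CPM in M3 + 2.5% FEx, against 0.603, 0.648 and 0.812 CPM in MB10 (log2 fold change 1.82 ± 0.21, adjusted p = 2.8e-05), and Eip93F, a transcription factor, had 6.21, 6.13 and 7.18 CPM in M3 + 2.5% FEx, against 3.22, 3.46 and 3.56 CPM in MB10. Of the 4 GMC oxidoreductase genes tested, a family that includes steroid oxidases, 3 fell, also length-adjusted, and were called, all at low levels: CG9521 had 0.465, 0.329 and 0.124 CPM in M3 + 2.5% FEx, against 3.62, 2.94 and 1.4 CPM in MB10, ninaG had 0.253, 0.493 and 0.456 CPM in M3 + 2.5% FEx, against 1.36, 1.68 and 1.22 CPM in MB10 and CG9503 had 0.211, 0.247 and 0 CPM in M3 + 2.5% FEx, against 0.653, 0.389 and 0.586 CPM in MB10. CG9503 was not called without MB10 replicate 1.

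**Figure D4:**
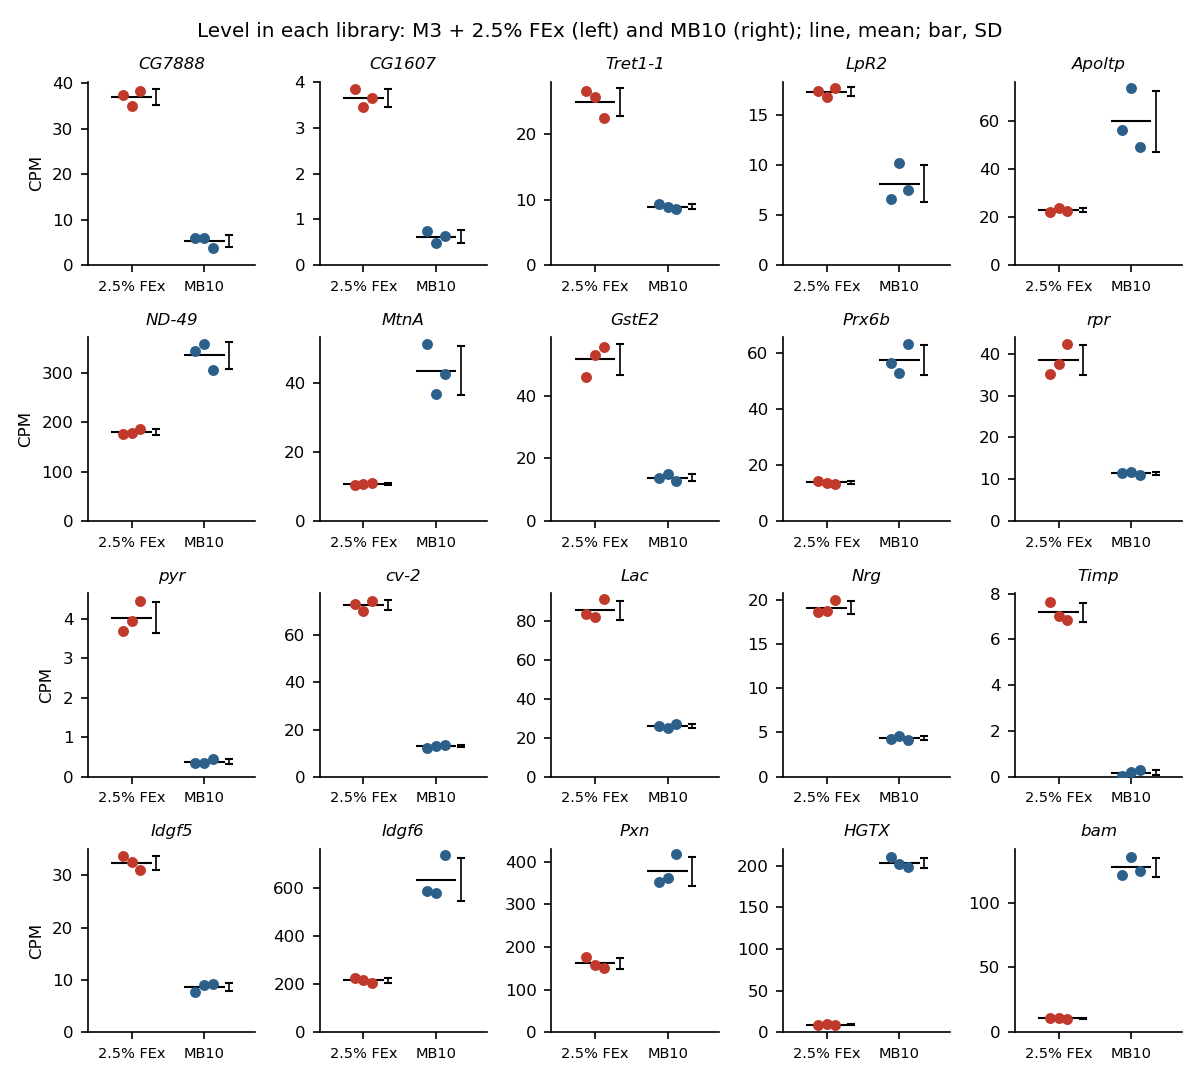
CPM (vertical axes, from 0) of 20 genes in each library of M3 + 2.5% FEx (left in each panel) and MB10 (right), with the mean as a line and the SD as a bar, n = 3 each. In none of the 20 genes do the groups overlap, in either direction, which also holds for 4484 of the 8705 genes tested.

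Cell adhesion genes gave the longest list of called members. Of 48 junction and adhesion genes 29 rose (60.4%, against 22% of all genes) and 3 fell, with 9 called higher and 3 lower. In the length-adjusted fit 23 rose and 9 fell, where 1574 of all 8663 genes rose and 1406 fell. Proteins of the septate junction, the occluding junction of fly epithelia and glia, were among them. Lac had 84, 82.1 and 91.3 CPM in M3 + 2.5% FEx, against 26.1, 25.1 and 27.3 CPM in MB10 (log2 fold change 1.71 ± 0.07, adjusted p = 1.6e-09), and Nrg had 18.6, 18.7 and 20 CPM in M3 + 2.5% FEx, against 4.22, 4.62 and 4.19 CPM in MB10 (log2 fold change 2.13 ± 0.08, adjusted p = 1.6e-09). Gli had 3.25, 3.58 and 4.02 CPM in M3 + 2.5% FEx, against 1.46, 0.864 and 1.13 CPM in MB10, and Fas3, an immunoglobulin-domain adhesion molecule, had 3.25, 4.24 and 3.98 CPM in M3 + 2.5% FEx, against 0.452, 0.173 and 0.0902 CPM in MB10 (log2 fold change 4.02 ± 0.32, adjusted p = 9.4e-07). The adhesion molecule ed had 10.2, 11.6 and 12.5 CPM in M3 + 2.5% FEx, against 1.36, 2.38 and 1.53 CPM in MB10, and scrib, a polarity scaffold at a much higher level, had 296, 281 and 286 CPM in M3 + 2.5% FEx, against 132, 144 and 131 CPM in MB10. For all of these the groups were apart, but scrib was not called in the length-adjusted fit (log2 fold change 0.61, against 1.08 without adjustment). E-cadherin, encoded by shg, rose by less, with 48.8, 48.7 and 51.4 CPM in M3 + 2.5% FEx, against 27.3, 31.9 and 23.7 CPM in MB10. Another 3 adhesion and guidance genes were called lower. Fas1 had 21.5, 22.3 and 22.6 CPM in M3 + 2.5% FEx, against 76.5, 89.7 and 74.2 CPM in MB10 (log2 fold change -1.86 ± 0.08, adjusted p = 6.6e-09), and the semaphorin Sema2a had 1.44, 2.55 and 2.07 CPM in M3 + 2.5% FEx, against 6.13, 7.13 and 5.28 CPM in MB10. Sema5c had at most 3 counts in each M3 + 2.5% FEx library and was at least 5.28-fold lower.

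The Beat, Side, Dpr and DIP families are immunoglobulin-domain proteins through which neurons recognize their partners. Of their 12 tested members 8 rose and 3 fell, also length-adjusted, with 6 called higher and 1 lower, mostly at about 1 CPM. With M3 + 2.5% FEx replicate 1 or 2 or MB10 replicate 1 left out, 1 fell. The most marked was beat-IIIc, with 2.79, 2.76 and 3.15 CPM in M3 + 2.5% FEx, against 0, 0.0432 and 0 CPM in MB10. These are 66, 67 and 76 counts in M3 + 2.5% FEx and 0, 1 and 0 in MB10, at least 20.9-fold higher. DIP-epsilon had 1.01, 1.23 and 1.29 CPM in M3 + 2.5% FEx, against 0.101, 0.13 and 0.226 CPM in MB10, and dpr3 had 2.28, 2.88 and 2.53 CPM in M3 + 2.5% FEx, against 1.06, 1.08 and 0.992 CPM in MB10. The one called lower, dpr7, had 15.9, 18.3 and 19.6 CPM in M3 + 2.5% FEx, against 48.4, 41.7 and 34 CPM in MB10 and lies on chromosome 4. Tetraspanins, membrane proteins that organize receptors and integrins, had 9 of 17 members that rose (52.9%, against 22% of all genes) and none that fell. Of these, 5 were called. Tsp42Ea had 66.1, 70.2 and 65.7 CPM in M3 + 2.5% FEx, against 15.9, 14.4 and 15.2 CPM in MB10 (log2 fold change 2.15 ± 0.07, adjusted p = 2.4e-10), and Tsp42Ed had 23.4, 22.9 and 22.7 CPM in M3 + 2.5% FEx, against 7.04, 7.65 and 7.94 CPM in MB10. Among 112 families by shared symbol with at least 5 tested members, 6 had 3 or more members called in 1 direction. They were the tetraspanins, the P450s, the GstE group, the DIPs and the peptidoglycan receptors, all higher, and the testis-type beta NAC genes, all lower.

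Of 20 genes of the basement membrane and matrix 10 rose and 1 fell, with 6 called, all higher. These are long genes, 13 of the 20 in the longest quintile, and length-adjusted 10 rose and 5 fell, with the median at 0.10 against 0.24 before adjustment. Timp, the inhibitor of matrix metalloproteinases, had 7.65, 7.03 and 6.85 CPM in M3 + 2.5% FEx, against 0.0503, 0.216 and 0.271 CPM in MB10 (log2 fold change 5.25 ± 0.23, adjusted p = 5.5e-09), and its target Mmp1 had 13, 11.7 and 13.1 CPM in M3 + 2.5% FEx, against 3.37, 3.24 and 2.98 CPM in MB10 (log2 fold change 1.98 ± 0.10, adjusted p = 1.5e-08). Timp lies inside Syn on the other strand. Mp, a collagen of the XV and XVIII type, had 0.676, 0.452 and 0.83 CPM in M3 + 2.5% FEx, against 0.101, 0.13 and 0.18 CPM in MB10. The collagen IV chain genes Col4a1 and vkg had log2 fold changes of -0.09 ± 0.16 and -0.23 ± 0.17, and the laminin chains LanB1 and LanB2 -0.1 ± 0.08 and -0.03 ± 0.07, none with an adjusted p under 0.05. In the length-adjusted fit LanB1 and LanB2 fell, by 0.35 and 0.26 on the log2 scale. The integrin subunit if, also known as inflated, had 9.72, 9.83 and 9.75 CPM in M3 + 2.5% FEx, against 3.02, 3.11 and 3.47 CPM in MB10, and Pxn, a peroxidase of the matrix made by blood cells, was lower, with 176, 158 and 152 CPM in M3 + 2.5% FEx, against 352, 362 and 417 CPM in MB10 (log2 fold change -1.22 ± 0.09, adjusted p = 3.4e-07).

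Serine proteases and their inhibitors held some of the largest changes. Clip-domain and other immune serine proteases act in cascades of the hemolymph that lead to Toll activation and melanization. Of 15 tested 9 rose and 2 fell, with 8 called higher and 1 lower, and the median of the list was 1.13. Length-adjusted, 10 rose and 2 fell, with 8 called higher and none lower, and none was called lower without M3 + 2.5% FEx replicate 2 or 3 or MB10 replicate 3. CG9733 had 6.93, 6.87 and 6.68 CPM in M3 + 2.5% FEx, against 0.0503, 0 and 0 CPM in MB10. These are 164, 167 and 161 counts in M3 + 2.5% FEx and 1, 0 and 0 in MB10, at least 49.3-fold higher. CG4793 had 29, 29 and 31.8 CPM in M3 + 2.5% FEx, against 2.92, 3.71 and 2.44 CPM in MB10 (log2 fold change 3.3 ± 0.13, adjusted p = 1.6e-09), and CG31219 had 4.01, 4.69 and 3.53 CPM in M3 + 2.5% FEx, against 0.452, 0.216 and 0.316 CPM in MB10. The protease grass, which acts ahead of Toll, had 19.1, 18.2 and 16.4 CPM in M3 + 2.5% FEx, against 8.34, 6.74 and 9.43 CPM in MB10. The serpin Spn77Ba, an inhibitor of melanization, had 13.5, 16 and 13.9 CPM in M3 + 2.5% FEx, against 3.92, 3.84 and 3.07 CPM in MB10 (log2 fold change 2 ± 0.12, adjusted p = 9.9e-08). In the Toll and Imd cores 13 of 21 genes rose and 4 fell, 9 and 3 in the length-adjusted fit, and 8 rose without M3 + 2.5% FEx replicate 1. Among those that rose were the transcription factor gene Rel, with 384, 373 and 407 CPM in M3 + 2.5% FEx, against 194, 233 and 198 CPM in MB10, and the inhibitor genes cact and pirk, with 111, 124 and 119 CPM in M3 + 2.5% FEx, against 23, 22.1 and 21.6 CPM in MB10 for pirk (log2 fold change 2.4 ± 0.07, adjusted p = 1.1e-10). The Toll ligand spz and the Toll factor Dif fell, by 0.57 and 0.43 on the log2 scale.

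Secreted hemolymph proteins divided within 1 family. Among the chitinase-like growth factors Idgf5 had 33.7, 32.4 and 31 CPM in M3 + 2.5% FEx, against 7.79, 9.11 and 9.25 CPM in MB10 (log2 fold change 1.89 ± 0.09, adjusted p = 6.4e-09). Idgf6 had 226, 217 and 205 CPM in M3 + 2.5% FEx, against 589, 579 and 737 CPM in MB10 (log2 fold change -1.56 ± 0.10, adjusted p = 1.1e-07), and Idgf2 had 38.5, 40.1 and 38.4 CPM in M3 + 2.5% FEx, against 84, 95.4 and 80.3 CPM in MB10. Idgf4 fell by 0.87 on the log2 scale, which did not pass without M3 + 2.5% FEx replicate 1 or 3 or MB10 replicate 3, or in the length-adjusted fit. The clot protein fon had 6.08, 6.13 and 5.1 CPM in M3 + 2.5% FEx, against 1.71, 1.64 and 2.48 CPM in MB10, and the thioester protein Tep2, a complement-like opsonin, had 132, 137 and 141 CPM in M3 + 2.5% FEx, against 29.5, 40.1 and 31.6 CPM in MB10 (log2 fold change 2.02 ± 0.10, adjusted p = 1.5e-08). The phagocytic receptor gene eater fell by 0.68 on the log2 scale, which did not pass without M3 + 2.5% FEx replicate 1 or 2 or MB10 replicate 2. The scavenger receptor Sr-CIV was at most 3 counts in each MB10 library and at least 4.09-fold higher.

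Cytoskeletal, muscle and neuronal genes moved in both directions. Of 34 actin genes 8 rose and 8 fell (6 and 7 length-adjusted), and 3 to 6 fell with single libraries left out. Each direction held 23.5% of the list, near the 22% and 22.2% of all genes. The nucleator spir had 28.1, 29.6 and 30.2 CPM in M3 + 2.5% FEx, against 8.39, 7.69 and 8.39 CPM in MB10, and Arpc3B, a subunit of the Arp2/3 complex, had 18.4, 21.5 and 22.5 CPM in M3 + 2.5% FEx, against 47.3, 41.5 and 45.1 CPM in MB10. Act5C, the main actin gene, had 3656, 3492 and 3254 CPM in M3 + 2.5% FEx, against 4270.0, 3944 and 4649.7 CPM in MB10 (log2 fold change -0.31 ± 0.10, adjusted p = 0.025), and did not pass in 4 of the 6 fits that left out 1 library. Of 12 muscle genes tested 5 rose (41.7%) and 2 fell (16.7%), and length-adjusted 2 rose and 2 fell. Zasp52, a Z-disc protein also found at integrin adhesions, had 176, 159.5 and 174 CPM in M3 + 2.5% FEx, against 58.2, 66.7 and 60.9 CPM in MB10, while Obsc had 0.634, 0.411 and 0.456 CPM in M3 + 2.5% FEx, against 1.96, 3.28 and 3.34 CPM in MB10. Of 15 neuronal genes 6 rose (40%) and 2 fell (13.3%), and length-adjusted 4 rose and 5 fell. Of the same genes 4 were called higher and 2 lower (3 and 2 length-adjusted). Syt1, brp and cac were among those called higher. Their means were 0.4715, 0.6255 and 0.5807 CPM in M3 + 2.5% FEx, against 0.09021, 0.1837 and 0.1771 CPM in MB10. cac lost its call without M3 + 2.5% FEx replicate 2 or MB10 replicate 1 or 3. Complexin, cpx, which clamps vesicle release, had 20.8, 20.7 and 20.9 CPM in M3 + 2.5% FEx, against 7.24, 7.39 and 6.36 CPM in MB10. Appl and the sodium channel para were lower, with 1.73, 2.1 and 1.7 CPM in M3 + 2.5% FEx, against 3.97, 3.54 and 4.24 CPM in MB10 for Appl and 2.62, 2.43 and 3.03 CPM in M3 + 2.5% FEx, against 5.93, 6.05 and 4.69 CPM in MB10 for para, which was not called in 3 of the 6 fits that left out 1 library.

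Among the decreases 5, also length-adjusted, were testis-type beta NAC genes, paralogs of a chaperone subunit that sits on the ribosome. betaNACtes6 had 0.676, 0.699 and 0.747 CPM in M3 + 2.5% FEx, against 24, 21.3 and 24 CPM in MB10 (log2 fold change -5.02 ± 0.12, adjusted p = 2.9e-11), and betaNACtes3 had 0.465, 0.905 and 0.747 CPM in M3 + 2.5% FEx, against 20.5, 20 and 20.8 CPM in MB10. betaNACtes2 had 0.0422, 0.0411 and 0.166 CPM in M3 + 2.5% FEx, against 3.47, 3.33 and 3.07 CPM in MB10. betaNACtes1 and betaNACtes4 had at most 3 counts in every M3 + 2.5% FEx library and were at least 17.3-fold and 19.3-fold lower. The 6th member, betaNACtes5, had 0.338, 0.617 and 0.456 CPM in M3 + 2.5% FEx, against 0.352, 0.389 and 0.406 CPM in MB10 and did not pass the test (adjusted p = 0.53). The genes are near-copies of one another, so that the counts of single members are uncertain. Rpt3R, a testis form of a proteasome ATPase, had 2.41, 2.14 and 1.78 CPM in M3 + 2.5% FEx, against 12.5, 13.5 and 11.9 CPM in MB10, and RpS19b, a germline form of a ribosomal protein, had 39.6, 44.9 and 40.2 CPM in M3 + 2.5% FEx, against 121, 93.9 and 107 CPM in MB10.

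Outside the lists, and apart from the antimicrobial genes and the other genes that the study's text names, the 20 genes with the largest called increases at 5 CPM or more had log2 fold changes from 3.74 to 6.73. The first was edin, a secreted peptide induced by infection, with 118, 123 and 111 CPM in M3 + 2.5% FEx, against 0.855, 0.864 and 1.58 CPM in MB10. CG14567 had 36.4, 37.1 and 37.7 CPM in M3 + 2.5% FEx, against 0.402, 0.432 and 0.406 CPM in MB10 (log2 fold change 6.47 ± 0.12, adjusted p = 1.9e-12), and CG10232 had 88.5, 102 and 107 CPM in M3 + 2.5% FEx, against 1.71, 1.3 and 1.35 CPM in MB10. CG10359 had 43.7, 46.8 and 47.4 CPM in M3 + 2.5% FEx, against 0.603, 0.605 and 0.812 CPM in MB10. In all 4 the MB10 libraries were near 0 and the groups were far apart. The TRP channel gene pain had 21, 17.8 and 21.7 CPM in M3 + 2.5% FEx, against 0.201, 0.389 and 0.541 CPM in MB10, Dtg, a target of the BMP ligand Dpp, had 122, 119 and 123 CPM in M3 + 2.5% FEx, against 2.16, 3.11 and 2.53 CPM in MB10, and rgn had 80.6, 78.6 and 86.1 CPM in M3 + 2.5% FEx, against 4.73, 5.14 and 4.28 CPM in MB10. CG10126 had 139, 146 and 148 CPM in M3 + 2.5% FEx, against 11.2, 9.63 and 8.34 CPM in MB10. Esyt2, which tethers the endoplasmic reticulum to the plasma membrane, had 34.1, 36.7 and 39.8 CPM in M3 + 2.5% FEx, against 1.51, 1.68 and 1.22 CPM in MB10, and mthl2, a receptor of the methuselah family, had 42.1, 47.3 and 53.4 CPM in M3 + 2.5% FEx, against 2.71, 2.64 and 1.53 CPM in MB10. The remaining ones were Mtkl, CG12991, CG7778, yellow-b, CG4927, CG34034, CG5758, CG10132 and the overlapping pair Pif1A and Pif1B, whose counts cannot be told apart.

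The 20 largest decreases by the same rule ran from -4.43 to -2.44. HGTX, a homeodomain transcription factor, had 9.04, 10 and 9.34 CPM in M3 + 2.5% FEx, against 210.3, 202 and 199 CPM in MB10 (log2 fold change -4.43 ± 0.08, adjusted p = 1.5e-12). CG6999 had 2.24, 2.71 and 2.86 CPM in M3 + 2.5% FEx, against 56.4, 48.2 and 58.2 CPM in MB10, and CG32706 had 2.2, 2.63 and 2.12 CPM in M3 + 2.5% FEx, against 44.1, 34.1 and 44.3 CPM in MB10. bam, which starts germline differentiation in the ovary and testis, had 10.8, 11.1 and 10.4 CPM in M3 + 2.5% FEx, against 121, 135 and 125 CPM in MB10 (log2 fold change -3.56 ± 0.08, adjusted p = 1.2e-11). In these 4 genes every MB10 library was far above every serum-free one. Nazo had 5.07, 5.63 and 5.02 CPM in M3 + 2.5% FEx, against 64, 58.6 and 66.4 CPM in MB10, and pon, an adaptor that partitions the cell fate factor Numb at division, had 1.9, 2.1 and 1.7 CPM in M3 + 2.5% FEx, against 22.2, 22 and 24.8 CPM in MB10. The sugar receptor gene Gr61a had 1.73, 1.85 and 1.7 CPM in M3 + 2.5% FEx, against 15, 13.7 and 15.8 CPM in MB10. cGlr2, a cGAS-like receptor for nucleic acid in the cytosol, had 1.52, 1.6 and 2.32 CPM in M3 + 2.5% FEx, against 11.7, 11.8 and 12.2 CPM in MB10, and the vesicle fusion ATPase gene comt had 0.676, 0.905 and 0.581 CPM in M3 + 2.5% FEx, against 5.78, 4.32 and 5.59 CPM in MB10. Rab23, a small GTPase of membrane traffic, had 3.13, 4.32 and 3.61 CPM in M3 + 2.5% FEx, against 22.1, 23 and 19.3 CPM in MB10, and the phosphatase Ptp52F had 2.7, 2.02 and 2.41 CPM in M3 + 2.5% FEx, against 14.9, 15.9 and 14.2 CPM in MB10. The others were CG5973, CG11825, CG15056, CR43361, CG13692, CG31997, CG12926, CG32187 and 1 gene known by its identifier alone.

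Of the called genes near 0 in 1 medium, most were near 0 in MB10. Of the genes called higher, 68 had at most 3 counts in every MB10 library, and of those called lower, 5 had at most 3 counts in every M3 + 2.5% FEx library. With a limit of 10 counts these were 179 and 54. Such genes were tested only where another medium, M3 + 10% FEx included, gave them enough counts, so both numbers depend on the filter. They were 39 and 5 with the 6 libraries alone, 86 and 22 with DESeq2, and 142 and 63 with no filter. After CG9733, the largest bounds were in CG33225, with 100, 97 and 104 counts in M3 + 2.5% FEx and 3, 1 and 2 in MB10 (at least 30.1-fold higher), and the antimicrobial gene Dro. The transcription factor genes nau, which directs muscle formation, and bi, which patterns the wing and eye, had 52, 47 and 61 counts and 39, 43 and 50 counts in M3 + 2.5% FEx, against 0, 2 and 2 and 2, 1 and 0 counts in MB10. They were at least 16-fold and 13.2-fold higher, at levels of about 2 CPM. e, the gene of the ebony enzyme that conjugates biogenic amines, had 20, 22 and 21 counts in M3 + 2.5% FEx and 0, 2 and 1 in MB10. In the other direction nAChRbeta2, an acetylcholine receptor subunit, had 1, 0 and 2 counts in M3 + 2.5% FEx and 26, 29 and 28 in MB10, at least 10.2-fold lower. The non-coding RNA lncRNA:CR44318 had 1, 0 and 0 counts in M3 + 2.5% FEx and 32, 31 and 23 in MB10.

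Genes of chromosome 4, a small and largely heterochromatic chromosome, were lower as a group. Of 88 tested 42 fell (47.7%) and 5 rose, 11 were called lower and 3 higher, and 70 had a log2 fold change below 0. Their median was -0.32, against -0.07 to -0.01 on the other arms, and their median exon length was 3705 bases, against 1959 to 2252 on the other arms. Relative to the mean of MB10, the median of chromosome 4 was -0.403, -0.306 and -0.181 in the M3 + 2.5% FEx libraries and 0.054, 0.209 and -0.268 in the MB10 libraries. MB10 replicate 3 thus lay within the range of the serum-free libraries, and without it the median was -0.45. Chromosome 4 has too few tested genes for a window of 100 neighbouring genes, and no such window on the other arms had a median below -0.22 or above 0.25. In windows of 50 genes the 2 on chromosome 4 had medians of -0.38 and -0.35, and the lowest on 2L had -0.36.

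**Figure D5:**
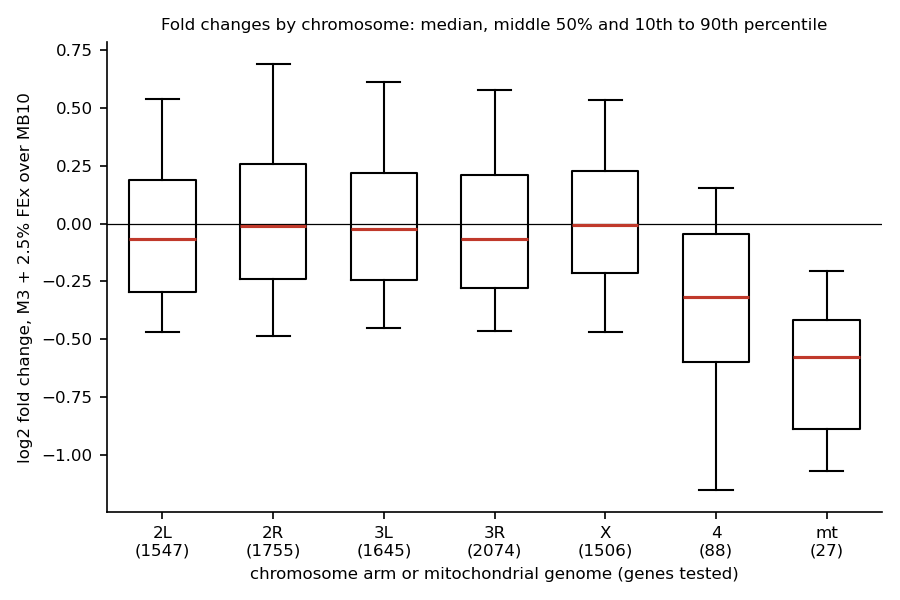
Log2 fold change of M3 + 2.5% FEx over MB10 by chromosome arm and for the mitochondrial genome, with the number of genes tested; boxes hold the middle 50% of genes with the median as a line, and whiskers reach the 10th and 90th percentiles. The medians of chromosome 4 (-0.32) and of the mitochondrial genome (-0.58) lie below those of the 5 long arms.

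Called genes also stood side by side. There were 8 runs of 4 or 5 neighbouring tested genes called in 1 direction, 6 of them higher and 2 lower. Positions are those of the annotation of assembly BDGP6.54, which has the same sequence as the release 6 genome used by the authors. Runs of known immune genes were the cecropins CecA1, CecA2, CecB and CecC and the set jef, Dro, AttA and AttB. At chr2R:18393666-18400375 Idgf5, GstE10, GstE1 and GstE2 rose together, with a median of 1.89. This run reaches 4 genes only with GstE1, which lost its call in most fits that left out 1 library. At chr3R:14218136-14244677 the run CG31326, Sp212, CG9631 and CG43291 rose, and Sp212, a serine protease, had 32, 31.5 and 32.2 CPM in M3 + 2.5% FEx, against 3.42, 2.76 and 4.96 CPM in MB10 (log2 fold change 3.1 ± 0.14, adjusted p = 8.3e-09). At chr2L:2815970-2847212 Duox, CG18558, CG18557 and CG3117 rose, of which CG18557 had 94.4, 90.2 and 88.2 CPM in M3 + 2.5% FEx, against 11.2, 11.3 and 12.8 CPM in MB10. On X, Septin4, CG4678, CG34325 and if rose at chrX:16684216-16783434. CG4678, without which this run would not reach 4 genes, had 4, 4 and 2 counts in M3 + 2.5% FEx and 0 in each MB10 library. The runs that fell were Prx6c, CG11825, CG33474, Prx6b and CG12896 at chr2R:10418718-10427915, with a median of -2.06, and na, betaNACtes2, betaNACtes6, betaNACtes3 and betaNACtes4 at chrX:14266367-14381416, with a median of -4.84. Several of these genes overlap or are copies of a neighbour, and whether reads were counted by strand is not given in the sources used here.

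Against M3 + 10% FEx, 983 of all tested genes (11.3%) rose in M3 + 2.5% FEx and 913 (10.5%) fell. Of the 167 genes chosen by rule for the text, 28 rose and 66 fell in that comparison. The comparisons of the FEx media share the M3 + 2.5% FEx libraries with the one against MB10. Means in M3 + 10% FEx were 33.1 CPM for CG7888, 18.4 CPM for Timp and 9.32 CPM for HGTX. MtnA had a mean level of 10.8 ± 0.28 CPM with the lower dose of extract, M3 + 2.5% FEx, and of 68.6 ± 23 CPM with the higher dose, M3 + 10% FEx, against 43.7 ± 7.2 CPM in MB10 (SD, n = 3 each). Arpc3B averaged 20.8 ± 2.16 CPM with the lower dose and 47.8 ± 3.66 CPM with the higher dose, against 44.6 ± 2.95 CPM in MB10.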

How the data were processed

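Total RNA of S2R+ cells was made into stranded poly(A)-selected libraries and sequenced as paired reads. The authors deposited raw counts per gene, made with Trimmomatic 0.36, HISAT2 2.1.0 and featureCounts 1.6.4 on the release 6 fly genome. The strand and multiple-mapping settings are not given in the sources used here. Of the per-sample columns, 0 were left unused. Symbols, overlaps and exon lengths came from Ensembl 115, in which 17477 of 17562 identifiers matched. All 9 libraries were fitted in edgeR 4.0.16 (R 4.3.3) with TMM scaling, the filterByExpr minimum and 1 coefficient per medium. The quasi-likelihood F test was two-sided, with Benjamini-Hochberg adjustment over 8705 genes, and was tested on simulated data. SE is the log2 fold change over the root of F. Errors are SD, n = 3. The floor of 3 counts covers counting error only.

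Members and the 58 gene lists were chosen with earlier results of these data known. The text names, per list, up to 3 called genes per direction with the largest change (where none was called, 2 with the lowest adjusted p), and the 20 largest changes per direction outside the lists at 5 CPM or more. Other genes, such as srp, Lac, Gli, path, hid, Xbp1, Cyp6a20, GstD3, Rel, the collagens and the tetraspanins, were added as known members after their values were seen. Alternatives were RLE scaling, DESeq2 1.42.0, the 6 libraries alone, no filter, 10 counts in every library, a replicate block, each library left out and, chosen after seeing the data, exon length offsets. Outside the replicate block, replicate numbers were not used to pair the samples.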

Additional observations from a re-analysis of the deposited data

Results flagged for a closer look

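For 9 genes named in the text (7 of the 167 chosen by rule, and Hsp26 and Idgf4) the mean in M3 + 2.5% FEx and the mean in M3 + 10% FEx lay on opposite sides of MB10, and the 2 extract media differed (adjusted p under 0.05, edgeR). MtnA had a log2 fold change of -2.67 for M3 + 2.5% FEx over M3 + 10% FEx, with means of 10.8 CPM in M3 + 2.5% FEx, 68.6 CPM in M3 + 10% FEx and 43.7 CPM in MB10. Arpc3B had -1.2 (20.8, 47.8 and 44.6 CPM in the same order), and Pgk -0.47 (147, 204 and 197 CPM). The genes ry, CG9503 and Cht2 had -2.01, -1.95 and -1.26, all at about 1 CPM or less. Idgf4 had -0.98 (0.374, 0.748 and 0.689 CPM). In the other direction, stg had 0.64 (152, 97.2 and 109.9 CPM) and Hsp26 had 1.68 (92.1, 28.7 and 60.3 CPM). In M3 + 10% FEx these means were near those of MB10 for all but MtnA and Hsp26, and the difference of M3 + 10% FEx from MB10 was not tested here. Set against M3 + 10% FEx, M3 + 2.5% FEx had higher levels of 28 and lower levels of 66 of the 167 genes chosen by rule, by the same test.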

How the results depend on the processing

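None of the 167 genes chosen by rule changed direction under any alternative in which it was tested (119 with 10 counts asked of every library, 157 with the 6 libraries alone, 166 length-adjusted). The rule picked them for a large change or a low adjusted p in the same libraries, so this was largely fixed by the choice. In each alternative 0 to 13 of the 167 lost their call or, where not called before, no longer passed. Of the genes added after their values were seen, 4 that had not passed the test changed sign with single libraries left out: Col4a1 (-0.1651 to 0.0899), LanB1 (-0.1656 to 0.007775), LanB2 (-0.06026 to 0.01496) and crq (-0.1393 to 0.09459). A further 0 to 8 in each alternative lost their call or, where not called before, no longer passed. Called genes numbered 254 higher and 166 lower when 10 counts were asked of every library, which leaves 0 genes in both sets near 0 in 1 medium. The 68 genes near 0 in MB10 became 39 with the 6 libraries alone, 142 with no filter and 179 with a limit of 10 counts. The 5 near 0 in M3 + 2.5% FEx became 22 with DESeq2, 63 with no filter and 54 with a limit of 10 counts. The causes were not tested. With each library left out, 480 to 515 genes were called higher and 235 to 260 lower, 1623 to 2233 rose and 1361 to 2258 fell, 68 became 72 to 99 and 5 became 5 to 11. The chromosome 4 median was then -0.4478 (without MB10 replicate 3) to -0.2236. Windows of 50 genes had medians from -0.3823 (chromosome 4) to 0.3626. With a replicate block 478 genes were called higher and 246 lower, and GstE1 lost its call. Same-numbered samples had correlations of -0.34, -0.27 and -0.58 in their deviations from the mean of their medium, and differently numbered ones -0.31 to 0.49. Such deviations sum to 0 within a medium, so these values cannot show whether samples of the same number were handled together. In the length-adjusted fit 443 of the genes called higher and 211 of those called lower were shared with the fit without offsets. At these depths, genes under 1 CPM rest on few counts.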

Other observations

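The genes in this paragraph were chosen after their values were seen, so their shared direction is a description. Beyond bam, further genes known for a role in the germline were lower in M3 + 2.5% FEx. eIF4E6, a form of the cap-binding protein, had a log2 fold change of -1.69 ± 0.11, and Mos, a kinase of meiosis, -1.44 ± 0.16. The RNA localization genes exu and swa had -1.14 ± 0.11 and -1.96 ± 0.31, and cuff, which acts in the piRNA pathway, had -1.84 ± 0.19. Of the genes for amines and pigments Pu, which starts pteridine and cofactor synthesis, had 6.29, 5.18 and 5.97 CPM in M3 + 2.5% FEx, against 0.704, 0.562 and 0.271 CPM in MB10, and the groups did not overlap. Among innexins, the gap junction proteins of insects, shakB had 2.2 ± 0.32, Inx3 1.35 ± 0.23 and ogre 1.4 ± 0.35. Among adenylyl cyclase genes, Ac78C had 2.11 ± 0.19, Ac13E 1.65 ± 0.17 and rut 1.34 ± 0.07, and rut was not called in the length-adjusted fit (0.99). Each gene of this paragraph had an adjusted p under 0.05 by the edgeR quasi-likelihood test. Other germline, innexin and cyclase genes were not counted, so these values do not describe the groups as a whole.

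By annotated class, 8056 protein-coding genes were tested, of which 457 were called higher and 219 lower, and 362 non-coding RNA genes, of which 22 were called higher and 26 lower. Of the 742 genes called in either direction 128 belonged to 1 of the lists described.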
